A study of Homo sapiens with 14 samples.

Results

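Histone genes were followed in Kasumi-1, an acute myeloid leukemia cell line of myeloblast type that carries the 8;21 translocation, in 2 RNA-seq experiments. Members are the genes whose symbol begins with H1-, H2A, H2B, H3-, H3C, H4C or H4-, with symbols of pseudogenes skipped. The rule found 37 of 16405 genes in the table of the knockdown experiment and 19 of 12325 in the table of the treatment experiment, or 40 of 16604 over both tables. Of the 40, 26 are cluster genes (symbols H2AC, H2BC, H3C and H4C with a number, and the linker histones H1-1 to H1-6). Another 2 are noncoding transcripts named after a neighbouring histone gene, H1-10-AS1 and H2AZ1-DT. The remaining 12 are called variant genes here, by symbol alone. The knockdown experiment has 3 shCtrl libraries (control shRNA) and 3 shRBPMS libraries (shRNA directed at RBPMS, an RNA-binding protein gene), harvested after 48 h of lentiviral infection and 48 h of puromycin selection. The treatment experiment has 2 DMSO libraries and 2 libraries of cells given RB98#, which the labels name by code alone, without dose or time. All 10 libraries come from this 1 line, and whether replicates are separate cultures is not stated, so p-values may measure technical spread only.

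Cluster genes encode the core and linker histones made in bulk while DNA is replicated. Their mRNAs typically end in a conserved stem-loop instead of a poly(A) tail, and the stem-loop binding protein SLBP carries them through processing, translation and decay. Some of these genes also give polyadenylated mRNA, described mostly in cells that have stopped dividing. Variant genes mostly lie outside the clusters, are mostly polyadenylated, and supply histones through the whole cell cycle: H3.3 (from H3-3A and H3-3B), H2A.Z (from H2AZ1 and H2AZ2), H2A.X and the linker histone H1.10. The labels give no RNA selection step for these RNA-seq libraries, so how completely tail-less histone mRNA was captured is not known.

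The stem-loop is shown first because it is what sets the cluster mRNAs apart, and because the member that passed the test in every main comparison, H2AX, also holds it. Annotated GENCODE 29 transcripts (GRCh38) were searched on the sense strand for a pattern of 16 bases with the invariant letters of the histone stem-loop (GG, 2 free bases, CT, 1 free base, TT, 1 free base, AG, 2 free bases, CC). At least 1 transcript of 16 of 26 cluster genes held it, and of 2 of 12 variant genes (H2AX and H4-16), against 180 of 58676 genes in the annotation (0.307%). H4-16, named HIST4H4 in GENCODE 29, is in the variant class only because its symbol is not one of the cluster symbols. Each line gives the match in capitals with 5 bases on either side, written 5′ to 3′ in DNA letters.
H2AX: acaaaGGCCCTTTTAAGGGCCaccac
H2AC6: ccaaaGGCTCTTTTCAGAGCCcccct
H2BC21: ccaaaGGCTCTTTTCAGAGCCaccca
H2BC9: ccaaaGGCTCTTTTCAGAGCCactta
H2BC5: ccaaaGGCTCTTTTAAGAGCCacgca
H4C9: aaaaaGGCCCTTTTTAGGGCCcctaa
The 16-base match was the same in 8 cluster genes, H2AC6, H2AC8, H2BC8, H2BC9, H2BC15, H2BC18, H2BC21 and H3C10. The H2AX match was found in no other member. In the transcript shown, 1044 bases of annotated sequence follow the match in H2AX, 1114 in H2AC6, 1729 in H2BC21 and 1640 in H2BC9, against 39 in H2BC5. Counts over these longer models can therefore come from RNA beyond the stem-loop. The annotated models of H2BC12 and H4C3, which hold no match, span 381 and 435 bases, and no match says only that these letters are not in the model.

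Promoters of 32 of the 40 members were matched by symbol in RefSeq (GRCh38.p14; 250 bases before to 50 after the start). Their motifs are shown for 4 genes that passed a test below. CCAAT, on either strand (CCAAT or ATTGG), was in 20 of 24 cluster promoters and 6 of 7 variant promoters, and in 34.6% of all 35116. TATAAA on the sense strand was in 12 of 24 and 4 of 7, and in 7.33% of all. The octamer ATTTGCAT, the element through which OCT1 acts at H2B promoters, was searched on either strand (ATTTGCAT or ATGCAAAT). It was in 7 of 9 cluster H2B, 5 of 5 cluster H2A, 0 of 4 cluster H3 and 0 of 5 cluster H4 promoters, in 1 of 7 variant promoters (H3-3B), and in 1.77% of all. The windows of H2AC6, H2AC8, H2AC11 and H2AC20 overlap those of H2BC4, H2BC8, H2BC11 and H2BC21, which start on the other strand. The same octamer is counted for both genes of each of these pairs, so the H2A and H2B counts are not separate. The lines give the 250 bases before the start on the gene's own strand, with matches in capitals. They are H2AX (chr11:119095466-119095715, minus strand), H3-3B (chr17:75779780-75780029, minus strand), H2AC6 (chr6:26123922-26124171, plus strand) and H2BC21 (chr1:149886683-149886932, minus strand).
H2AX: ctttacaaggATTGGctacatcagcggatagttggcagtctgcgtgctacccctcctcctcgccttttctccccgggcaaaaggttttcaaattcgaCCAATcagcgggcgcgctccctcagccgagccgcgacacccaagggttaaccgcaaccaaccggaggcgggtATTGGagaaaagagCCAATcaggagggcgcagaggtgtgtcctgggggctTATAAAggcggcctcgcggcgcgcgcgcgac
H3-3B: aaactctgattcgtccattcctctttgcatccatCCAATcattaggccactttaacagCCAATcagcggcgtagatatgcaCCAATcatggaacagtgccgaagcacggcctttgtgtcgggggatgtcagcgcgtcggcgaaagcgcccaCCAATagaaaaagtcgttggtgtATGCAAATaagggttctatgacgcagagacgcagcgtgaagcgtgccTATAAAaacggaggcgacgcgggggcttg
H2AC6: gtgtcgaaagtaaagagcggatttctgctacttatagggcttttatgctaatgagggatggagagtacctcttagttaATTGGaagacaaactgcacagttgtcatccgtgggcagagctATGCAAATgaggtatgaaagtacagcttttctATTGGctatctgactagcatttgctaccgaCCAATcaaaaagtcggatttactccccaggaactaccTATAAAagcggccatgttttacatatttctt
H2BC21: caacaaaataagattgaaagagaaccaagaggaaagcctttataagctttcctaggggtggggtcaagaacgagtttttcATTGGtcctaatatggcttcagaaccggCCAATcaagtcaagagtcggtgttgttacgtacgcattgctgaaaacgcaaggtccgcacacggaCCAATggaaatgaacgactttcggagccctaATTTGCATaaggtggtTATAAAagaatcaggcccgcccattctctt
All 4 hold CCAAT on one strand or the other and TATAAA, and the octamer is in H3-3B, H2AC6 and H2BC21 but not in this window of H2AX. These 4 do not stand for all members that passed a test. In the 300-base windows, H1-10 holds TATAAA but no CCAAT, and H2BC9 and H3-3A hold CCAAT but no TATAAA. H2BC12 and H2AZ1 hold both. A match is a run of letters and not a measured binding site. In GENCODE 29, H2AC6 starts 219 bases from H2BC4 and H2BC21 starts 323 bases from H2AC20, each pair pointing away from the other, so the region between serves as the upstream region of both genes.

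Depth was 24.03 to 34.38 M counts per library (1 M is 1e6) in the knockdown experiment and 13.9 to 15.3 M with RB98#. The labels set replicate 1 of shCtrl and shRBPMS (set 1) apart from replicates 2 and 3 (set 2), and mitochondrial genes took 13.2% to 15.2% of the counts in set 1 and 6.20% to 6.95% in set 2. Knockdown results are therefore given from 2 fits of edgeR's quasi-likelihood test with Benjamini-Hochberg adjustment over all genes, one with the group alone and one with the replicate number as a block (the blocked fit). RBPMS itself stood at 20.4, 7.24 and 7.39 CPM (counts per 1e6 after TMM scaling) in shCtrl and at 2.53, 3.34 and 3.08 CPM in shRBPMS, a log2 fold change of -1.96 (adjusted p = 0.0846) with the group alone and -1.79 (adjusted p = 0.0106) in the blocked fit. All 6 myeloblast markers (KIT, CD34, MPO, RUNX1T1, CD33, CD38) were in both tables, at a summed 13362 to 17474 CPM in shCtrl and 14706 to 15985 CPM in shRBPMS. With the group alone 1 was higher and 0 lower (edgeR), where 0.629% and 1.34% of all genes were. In the blocked fit 1 was higher and 2 lower, where 13.3% and 14.8% of all genes were. Of the other lineages, 0 of 7 erythroid markers were in either table, and the T cell markers CD3D, CD3E and CD247 summed to 10.9 to 12.4 CPM in shCtrl and 3.14 to 4.72 CPM in shRBPMS. Of these 3 T cell markers, 2 were lower (edgeR, group alone). Megakaryocyte markers (2 of 5 in the table) summed to 5.30 to 7.05 CPM in shCtrl and 2.65 to 3.08 CPM in shRBPMS, with ITGA2B lower (adjusted p = 0.0354, edgeR, group alone). Monocyte markers (2 of 4) summed to 3.88 to 5.68 and 5.90 to 7.34 CPM, and the 1 of 6 fibroblast and epithelial markers found, EPCAM, was at 26.6 to 40.1 and 36.1 to 65.4 CPM. CSF1R (adjusted p = 0.0142, edgeR) and EPCAM (adjusted p = 0.0053) were higher in the blocked fit. In the RB98# experiment the myeloblast markers summed to 14152 to 14242 CPM in DMSO and 15713 to 16650 CPM in RB98#. Of these 6, 2 were higher and 3 lower there (edgeR, group alone), where 20.5% and 17.3% of all genes were. Lower too were 1 of 2 T cell, 1 of 2 B cell and 1 of 2 monocyte markers tested. The log2 fold change was below 0 for 1 of 2 T cell, 2 of 2 B cell and 1 of 2 monocyte markers. The T cell markers summed to 5.67 to 5.90 CPM in DMSO and 3.66 to 3.75 CPM in RB98#. The B cell sums were 5.52 to 6.76 and 3.21 to 3.89 CPM. The monocyte sum was higher with RB98#, at 20.27 to 20.35 CPM in DMSO and 22.1 to 23.8 CPM in RB98#. The part of these markers in the histone values was not tested. Fewer cells of a type and less RNA per cell cannot be told apart in these bulk samples.

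Per length of transcript, variant genes filled the top of the order. In DMSO the FPKM (fragments per 1000 bases per 1e6 fragments, as deposited) averaged 300 for H2AZ1, 119 for H3-3B, 109 for H3-3A, 83.4 for H2AX, 54.4 for H2AZ2 and 26.4 for H1-10. H2BC12, a cluster H2B gene, came next at 15.5 FPKM, ahead of H2AJ, a replication-independent H2A, at 4.77. The other 9 cluster genes lay between 0.425 (H4C15) and 5.19 (H4C12) FPKM. H3-2, annotated as a processed transcript with 2072 bases of exon, was lowest at 0.147 FPKM. With 2 DMSO libraries, neighbours whose values overlapped were H4C12 and H2AJ, H2AC6 and H2AC20, H2BC9 and H2BC5, and the run from H2BC21 through H4C8 and H4C15 to H3-2. H4C12, H4C14 and H4C15 share 100%, 97.5% and 97.2% of their 50-base words with another gene, so their counts, and to a lesser degree those of H2BC12 (74.1%), depend on how shared reads were assigned.

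**Figure D1:**
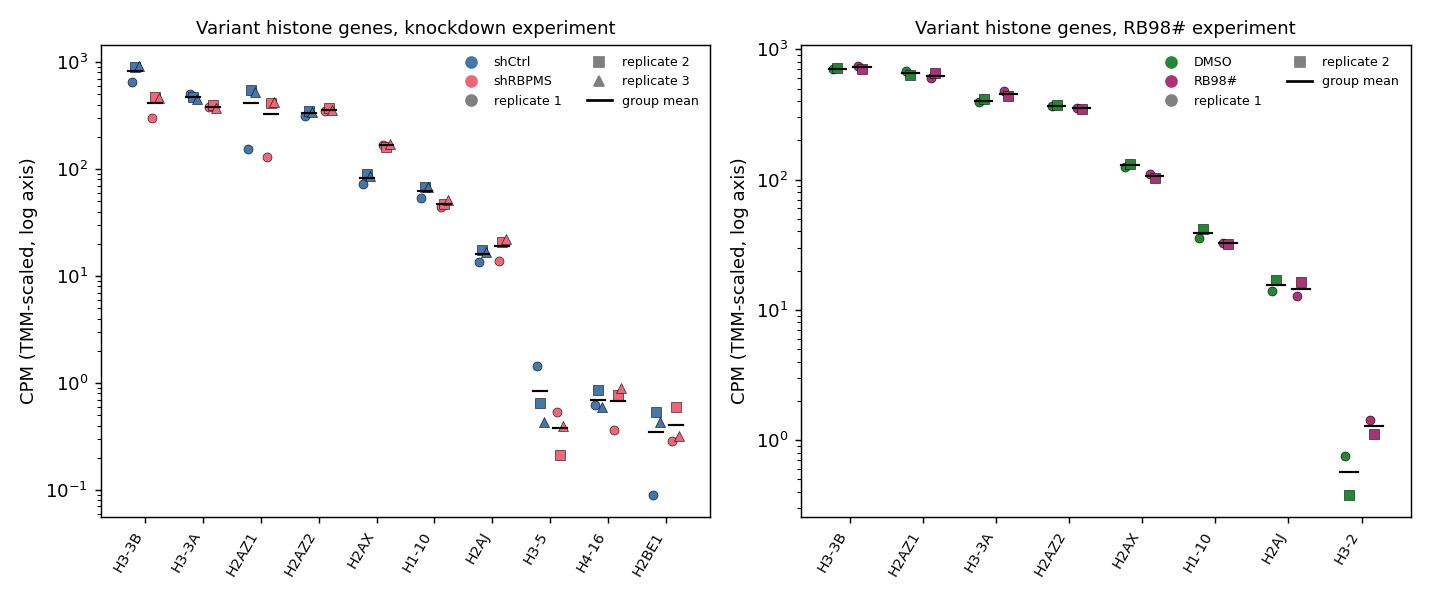
Each point is the CPM of 1 variant histone gene in 1 library (log axis, replicate by marker shape, 1 variant not drawn), with a line at the group mean, for the knockdown experiment (left) and the RB98# experiment (right). H2AX lies at 159 to 170 CPM in shRBPMS against 72.3 to 90.3 in shCtrl, H3-3B lies lower in all 3 shRBPMS libraries, and H2AZ1 is split by replicate 1 against replicates 2 and 3 in both groups.

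After RBPMS knockdown the summed CPM of cluster genes was higher, and that of variant genes lower, than in the same-numbered shCtrl library for each number. The 24 cluster genes summed to 25.6, 21.2 and 21.0 CPM in shCtrl and to 44.8, 30.0 and 30.4 CPM in shRBPMS, a log2 ratio of 0.64. Every shRBPMS library was above every shCtrl library. The 11 variant genes summed to 1784, 2467 and 2436 CPM in shCtrl and to 1411, 1906 and 1891 CPM in shRBPMS, a log2 ratio of -0.36. Here the groups overlapped, because set 1 was lower than set 2 in both, and within sets the log2 ratio was -0.34 (set 1) and -0.37 (set 2). The cluster log2 ratio was 0.81 in set 1 and 0.52 in set 2, and it was 0.42 without shRBPMS replicate 1. Cluster genes together took 0.00210% to 0.00448% of the scaled counts, against 0.141% to 0.247% for the variants. These sums are given as a description, with no test, and abundant genes weigh most in them. From shCtrl to shRBPMS, the mean CPM of H3-3B went from 822 to 413, but that of H2AX from 83.1 to 166. Of 11 variants, 4 had a log2 fold change above 0 with the group alone. Of the cluster genes, H2AC6 went from 1.05 to 4.38 CPM and H2BC12 from 4.73 to 8.43 CPM, while 3 of 20 tested were below 0.

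**Figure D2:**
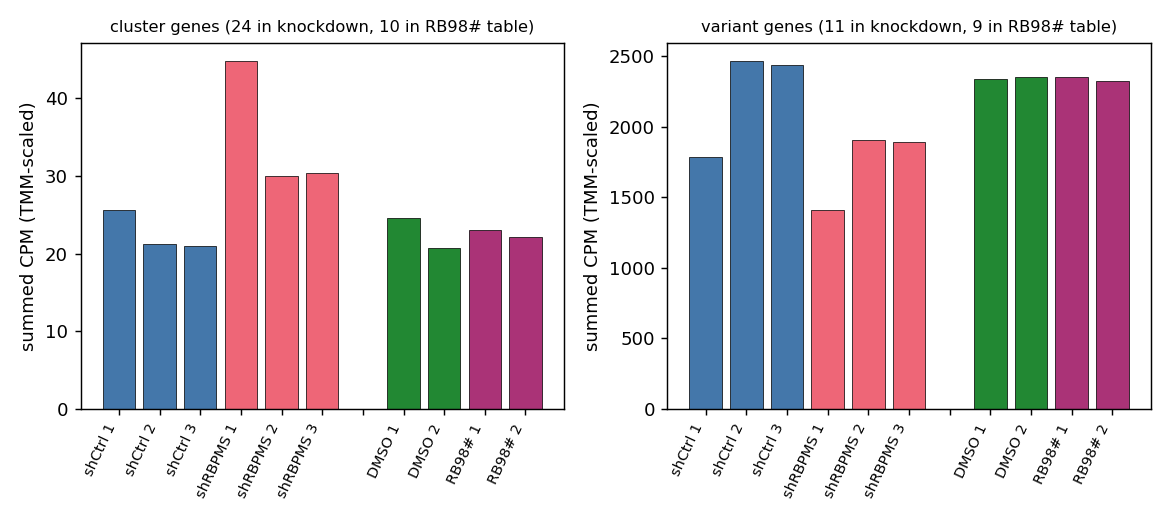
Bars give the summed CPM of the cluster genes (left) and of the variant genes (right) in each of the 10 libraries, each experiment scaled alone. The cluster sum is 30.0 to 44.8 CPM in the 3 shRBPMS libraries and 21.0 to 25.6 CPM in the 3 shCtrl libraries (24 genes), and 20.8 to 24.6 CPM over the RB98# experiment (10 genes), while the variant sum is lower in shRBPMS than in the same-numbered shCtrl library for each number.

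Of the 33 members that passed the filter on low counts in the knockdown table (H2BC11, H3C8, H3C12 and H3C13 did not), 1 passed the test with the group alone and 11 in the blocked fit, 5 higher and 6 lower. The background was 1.97% of 16215 genes with the group alone (0.629% higher, 1.34% lower) and 28.1% in the blocked fit, so 11 of 33 is a share near that of all genes. At an unadjusted p under 0.05 the fit of group alone held 11 members. With the group alone 0 of 20 cluster genes passed (edgeR; 6 at an unadjusted p under 0.05; 3 passed with DESeq2 and 0 with limma-voom). By class, the blocked fit had 4 cluster genes higher and 1 lower of 20, and 1 variant gene higher and 4 lower of 11, beside a background of 13.3% higher and 14.8% lower. The median log2 fold change with the group alone was 0.61 for the cluster genes, with 17 of 20 above 0, and -0.03 for the variants, with 7 of 11 below 0, against 0.02 over all genes tested. Groups did not overlap in CPM for 8 members that were higher and 5 that were lower of 33, where 25.9% of all genes did not overlap (12.3% higher, 13.6% lower). A scarce gene can pass the filter on low counts mainly through the group where it is higher. H2AC8 had 7, 10 and 11 counts in shCtrl and 23, 16 and 16 in shRBPMS. H4C12 had 9, 10 and 5 counts in shCtrl and 10, 16 and 12 in shRBPMS. Such genes can tilt the medians, signs and overlaps of the members tested, which are given as description only.

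H2AX, the H2A variant that is phosphorylated at DNA breaks, was the member called in both fits. It stood at 72.3, 90.3 and 86.6 CPM in shCtrl and at 169, 159 and 170 CPM in shRBPMS. The groups did not overlap, and both sets rose, with log2 ratios of 1.23 in set 1 and 0.89 in set 2. The log2 fold change was 1.00 ± 0.13 (SE; adjusted p = 0.0258, edgeR) with the group alone and 1.00 ± 0.09 (adjusted p = 0.000675) in the blocked fit. Leaving out single libraries kept the log2 fold change between 0.90 and 1.05. The call with the group alone was lost without shCtrl replicate 2 (adjusted p = 0.108) or 3 (0.119), and without shRBPMS replicate 1 (0.0642), 2 (0.156) or 3 (0.147). Without 1 of these 5 libraries, 0 to 37 genes of the whole table were called. H2AX shares 0.311% of its 50-base words with another gene. In the authors' deposited table its log2 fold change was 0.97 with an adjusted p of 2.5e-06.

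Both genes for the replacement histone H3.3 were lower in the blocked fit. H3-3B stood at 651, 898 and 916 CPM in shCtrl and at 298, 475 and 465 CPM in shRBPMS. All 3 shRBPMS libraries were below all 3 shCtrl libraries. Its log2 fold change was -0.99 ± 0.23 (adjusted p = 0.0862, edgeR) with the group alone and -1.01 ± 0.07 (adjusted p = 0.00042) in the blocked fit. H3-3A stood at 499, 467 and 456 CPM in shCtrl and at 378, 393 and 376 CPM in shRBPMS, again with no overlap. The log2 fold change was -0.31 ± 0.11 (adjusted p = 0.214, edgeR) with the group alone and -0.31 ± 0.06 (adjusted p = 0.0109) in the blocked fit. With replicates 2 and 3 summed to 1 library per group and the set as covariate, H3-3B passed (-1.04, adjusted p = 0.000543, edgeR) and H3-3A did not (-0.33, adjusted p = 0.0979). The 2 genes encode the same protein from different mRNAs, and H3-3B made up less of their total in shRBPMS within each set. The ratio of H3-3B to H3-3A counts was 1.30, 1.92 and 2.01 in shCtrl and 0.790, 1.21 and 1.24 in shRBPMS. H3-5, another gene for an H3.3-like protein, was at 0.428 to 1.43 CPM in shCtrl and 0.211 to 0.530 CPM in shRBPMS and had a log2 fold change of -1.06 (adjusted p = 0.0893, edgeR) in the blocked fit.

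H2AZ1, which encodes the main form of H2A.Z, a variant placed around transcription start sites, fell in the blocked fit. It stood at 154, 553 and 529 CPM in shCtrl and at 129, 416 and 427 CPM in shRBPMS. Within each set the shRBPMS libraries were the lower ones, but the step between sets was far larger. With the group alone the log2 fold change was -0.35 ± 0.59 (adjusted p = 0.862, edgeR), and it was 0.033 without shRBPMS replicate 1. In the blocked fit it was -0.33 ± 0.06 (adjusted p = 0.00888), and the call was lost with replicates 2 and 3 summed (-0.31, adjusted p = 0.111, edgeR). H2AZ2, which encodes the other H2A.Z protein, stood at 313, 348 and 340 CPM in shCtrl and at 348, 372 and 359 CPM in shRBPMS, and did not pass in either fit (log2 0.11, adjusted p = 0.194, edgeR, blocked). The antisense transcript H2AZ1-DT, which overlaps H2AZ1, was at 0.179 to 0.530 CPM over the 6 libraries.

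The linker histone gene H1-10 fell in the blocked fit. Its CPM was 53.3, 68.1 and 67.2 in shCtrl and 43.9, 47.2 and 51.5 in shRBPMS. The groups did not overlap, and the log2 fold change was -0.40 (adjusted p = 0.230, edgeR, group alone; 0.00888, blocked). Its overlapping antisense transcript H1-10-AS1 was at 2.54, 4.12 and 3.97 CPM in shCtrl and at 1.47, 2.18 and 2.61 CPM in shRBPMS (log2 -0.77, adjusted p = 0.0205, edgeR, blocked; 0.279, group alone). With replicates 2 and 3 summed neither passed (adjusted p = 0.0701 for H1-10 and 0.0748 for H1-10-AS1, edgeR). Whether counting used strand is not stated, so reads of this pair cannot be told apart. H2AJ was at 13.6 to 17.4 CPM in shCtrl and 13.9 to 22.3 CPM in shRBPMS (adjusted p = 0.118, edgeR, blocked).

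Of the cluster genes, H2AC6 moved farthest. It stood at 1.83, 0.681 and 0.628 CPM in shCtrl (41, 19 and 22 counts) and at 7.13, 2.56 and 3.43 CPM in shRBPMS (175, 73 and 96 counts). The groups did not overlap, and both sets rose by similar log2 ratios, 1.96 in set 1 and 2.20 in set 2. The log2 fold change was 2.09 ± 0.57 (adjusted p = 0.122, edgeR) with the group alone and 2.10 ± 0.21 (adjusted p = 0.00107) in the blocked fit. H2BC4, which shares the upstream region printed for H2AC6, was at 0.287 to 0.713 CPM in shCtrl and 0.457 to 0.572 CPM in shRBPMS (log2 0.18, adjusted p = 0.752, edgeR, blocked). H2AC6 shares 0.421% of its 50-base words with another gene.

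The other cluster genes that rose in the blocked fit were H2BC21, H4C3 and H2BC12. H2BC21, an H2B gene, stood at 1.25, 0.466 and 0.400 CPM in shCtrl and at 4.36, 1.44 and 0.715 CPM in shRBPMS. The 2 groups overlapped through the high replicate 1 of shCtrl, and the log2 fold change was 1.65 (adjusted p = 0.344, edgeR) with the group alone and 1.50 (adjusted p = 0.00996) in the blocked fit. Without shRBPMS replicate 1 the log2 fold change with the group alone was 0.66. H2AC20, an H2A gene across the same upstream region, lay on the other side: 1.78, 2.12 and 2.17 CPM in shCtrl against 0.734, 1.40 and 1.47 CPM in shRBPMS (log2 -0.76, adjusted p = 0.0555, edgeR, blocked). H4C3, an H4 gene, stood at 1.11, 0.645 and 0.457 CPM in shCtrl and at 2.45, 1.37 and 1.54 CPM in shRBPMS (log2 1.31, adjusted p = 0.0121, edgeR, blocked; 0.177, group alone). H2BC12, the most abundant cluster gene, stood at 3.88, 4.66 and 5.65 CPM in shCtrl and at 9.62, 7.59 and 8.08 CPM in shRBPMS. Neither H4C3 nor H2BC12 overlapped between groups. The log2 fold change of H2BC12 was 0.83 (adjusted p = 0.0146, edgeR, blocked; 0.102, group alone).

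H2BC9 was the 1 cluster gene that fell. This H2B gene, whose stem-loop matches that of H2AC6 and H2BC21, stood at 1.83, 2.19 and 2.34 CPM in shCtrl and at 0.856, 1.05 and 0.644 CPM in shRBPMS. The groups did not overlap, and the log2 fold change was -1.31 (adjusted p = 0.0720, edgeR) with the group alone and -1.33 (adjusted p = 0.0115) in the blocked fit. H2AC6, H2BC21 and H2BC9 each also hold the octamer in the promoter window. A relation of the stem-loop or the octamer to the change was not tested. Beside H2AC20, the cluster genes that averaged above 1 CPM in a group and did not pass were H4C9 (2.33 ± 0.88 CPM in shCtrl, 3.19 ± 1.07 in shRBPMS), H2BC15 (1.15 ± 0.34 and 1.73 ± 0.90), H3C10 (0.912 ± 0.08 and 1.58 ± 0.60) and H2BC5 (0.797 ± 0.14 and 1.04 ± 0.29; SD, n = 3 each). The other cluster genes averaged under 1 CPM in both groups, and the SE of those tested was 0.26 to 0.42 on the log2 scale in the blocked fit.

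**Figure D3:**
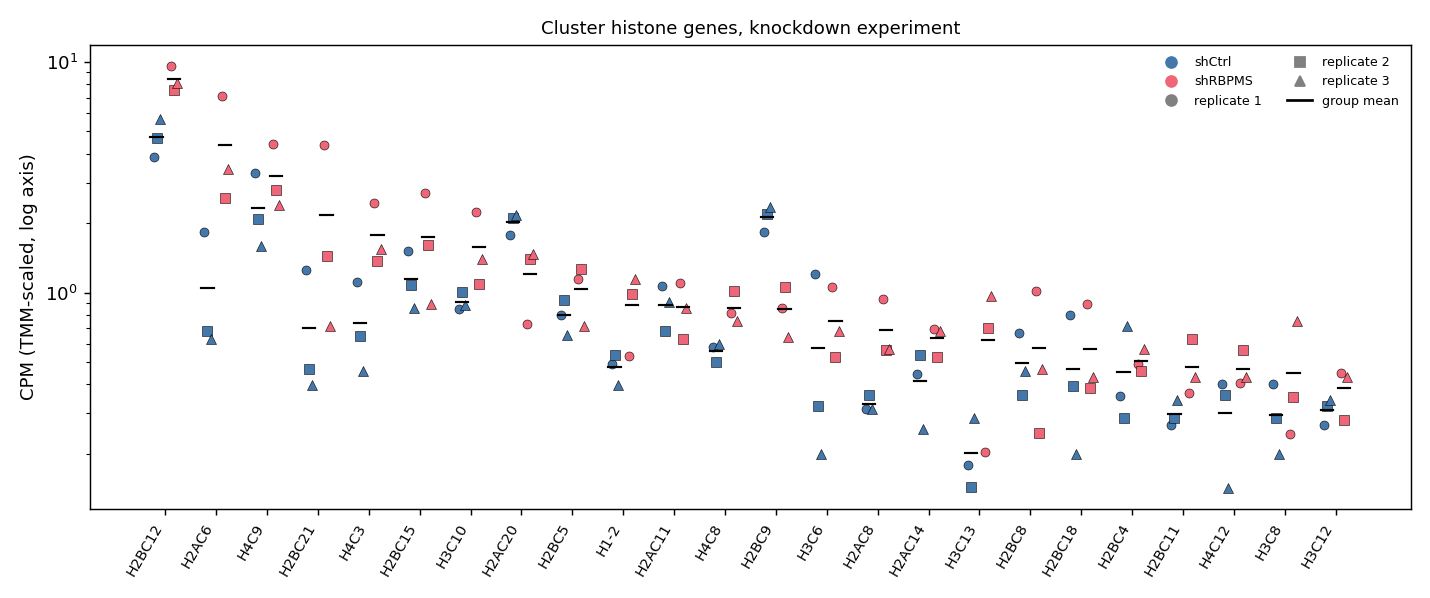
Each point is the CPM (log axis) of 1 cluster gene in 1 library of the knockdown experiment, with replicates by marker shape and a line at the group mean. H2BC12 and H2AC6 have the highest means in shRBPMS, at 8.43 and 4.38 CPM, and replicate 1 is the highest library in both groups for H2AC6, H2BC21, H4C3 and H4C9.

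The 2 label sets differed in part of the histone genes. With the group as a covariate, 15 of 33 members differed between sets (5 higher and 10 lower in set 2), where the background was 57.1% of all genes (28.0% higher, 29.2% lower). H2AZ1 was higher in set 2 by a log2 of 1.76 (adjusted p = 8.48e-07, edgeR) and H3-3B by 0.57 (adjusted p = 6.26e-05). H2BC21 was lower in set 2 by a log2 of 1.83, H2AC6 by 1.33 and H4C9 by 0.81. H2AX (0.12, adjusted p = 0.243, edgeR), H3-3A (-0.04, adjusted p = 0.520), H2BC9 (0.18, adjusted p = 0.588) and H2BC12 (adjusted p = 0.977) did not pass. The ratio of H2AZ1 to H2AZ2 counts was 0.491 and 0.371 in the set 1 libraries and 1.12 to 1.59 in the set 2 libraries. What a set stands for is not given in the labels, and its part in the group differences was not tested beyond the blocked fit and the within-set values.

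With RB98# the class sums lay within the range of their controls or close to it. The 10 cluster genes of that table summed to 24.6 and 20.8 CPM in DMSO and to 23.1 and 22.2 CPM in RB98#. The 9 variants summed to 2336 and 2348 CPM in DMSO and to 2349 and 2323 CPM in RB98#. Of 19 members tested, 4 passed with the group alone, 1 higher and 3 lower, where 37.8% of 12324 genes passed (20.5% higher and 17.3% lower). All 4 were variants. Of 10 cluster genes, 0 passed in edgeR, and 0 had an unadjusted p under 0.05, with edgeR, DESeq2 or limma-voom. In the blocked fit 3 of 19 passed, all lower, with a background of 35.9% (19.3% higher, 16.6% lower). Groups did not overlap for 3 members that were higher and 6 that were lower, where 68.3% of all genes did not overlap (34.3% higher, 34.0% lower). The median log2 fold change was -0.05 for cluster genes and -0.07 for variants, against 0.00 over all genes. With scaling by library totals alone, 0 were higher and 5 lower, and the median of all genes shifted to -0.10.

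H2AX fell with RB98#, the opposite of its change in the knockdown. It stood at 126 and 131 CPM in DMSO and at 110 and 103 CPM in RB98#. The groups did not overlap, and the log2 fold change was -0.27 ± 0.07 (adjusted p = 0.0031, edgeR). H1-10 stood at 35.7 and 41.7 CPM in DMSO and at 32.8 and 32.0 CPM in RB98# (log2 -0.26 ± 0.10, adjusted p = 0.0442, edgeR). H1-10 was thus lower in each RB98# library than in each DMSO library. H3-3A rose, from 395 and 412 CPM to 477 and 438 CPM (log2 0.18 ± 0.06, adjusted p = 0.0158, edgeR), and its call was lost in the blocked fit (adjusted p = 0.0546), with library totals (log2 0.080, adjusted p = 0.283), without DMSO replicate 1 (log2 0.15, adjusted p = 0.315) and without RB98# replicate 1 (log2 0.11, adjusted p = 0.0732). Without DMSO replicate 2, none of the 4 passed, with log2 fold changes of -0.24 for H2AX (adjusted p = 0.124), -0.14 for H1-10 (0.547) and 0.21 for H3-3A (0.127). The call of H1-10 was also lost with DESeq2 (adjusted p = 0.150), without DMSO replicate 1 (0.0502) and without RB98# replicate 2 (0.0589). In the authors' deposited table, H2AX (log2 -0.26, adjusted p = 0.0182) and H3-3A (0.18, adjusted p = 0.0233) were past 0.05, and H1-10 (adjusted p = 0.246) was not.

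H3-3B stood at 704 and 714 CPM in DMSO and at 743 and 709 CPM in RB98#, with overlapping groups (adjusted p = 0.642, edgeR). H2AZ1 (678 and 637 CPM, then 601 and 657) and H2AZ2 (364 and 373 CPM, then 353 and 351) also did not pass. Of the cluster genes, H2AC6 stood at 5.05 and 3.76 CPM in DMSO and at 6.48 and 4.78 CPM in RB98# (log2 0.36, adjusted p = 0.238, edgeR). H2BC12 stood at 8.47 and 6.34 CPM in DMSO and at 6.14 and 5.90 CPM in RB98# (log2 -0.29, adjusted p = 0.262, edgeR). H4C8 had the lowest log2 fold change, -0.69 ± 0.47, and H3-2 the highest, 1.19 ± 0.51, neither past the test. H3-2 was read from 11 and 6 counts in DMSO and 21 and 15 in RB98#. H4C12 (0.887 and 2.54 CPM) and H4C15 (2.18 and 0.299 CPM) differed more between the 2 RB98# libraries than between groups.

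**Figure D4:**
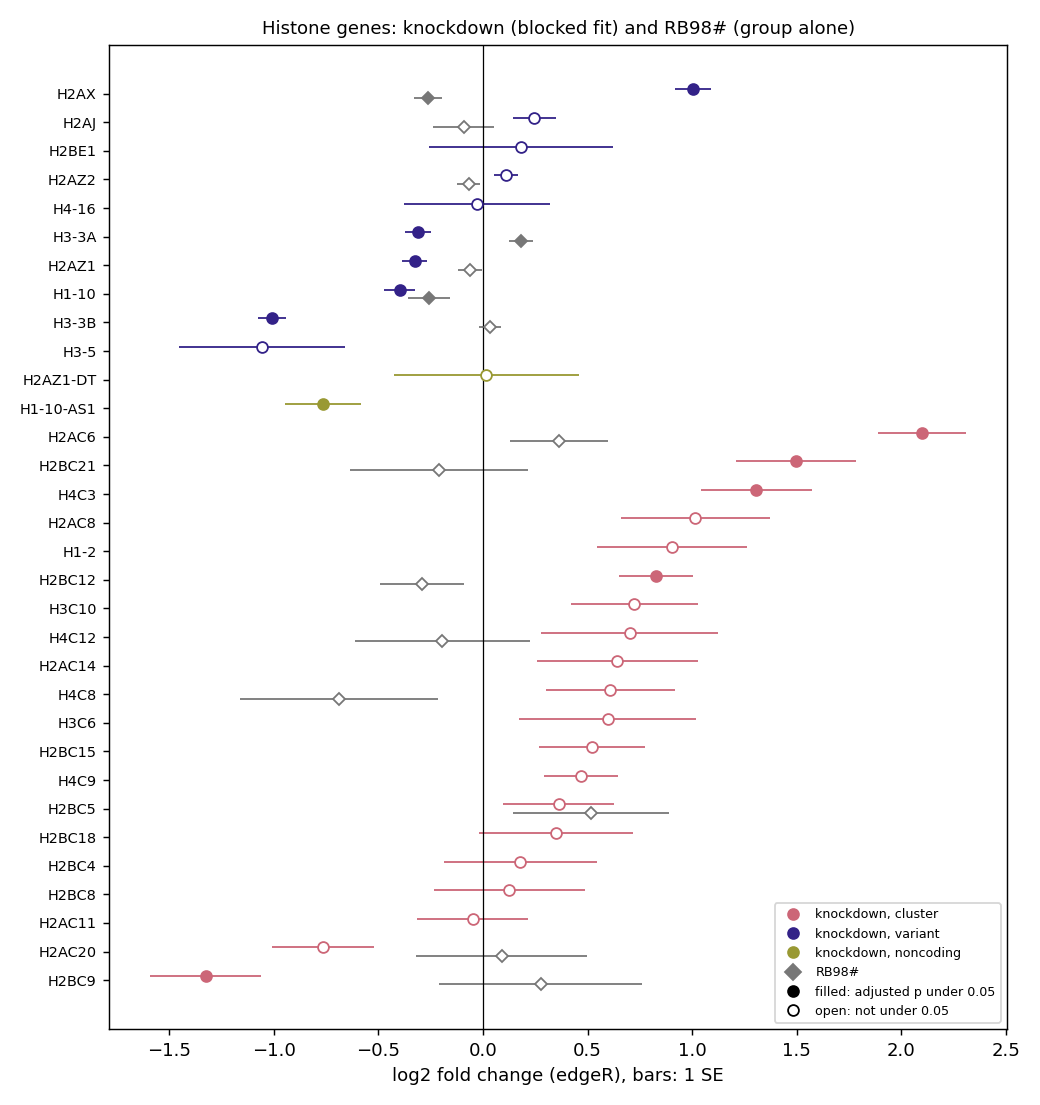
Points give the log2 fold change of the members that passed the filter (1 variant is not drawn), with bars of 1 SE, for the knockdown (circles, blocked fit, coloured by class) and for RB98# (grey diamonds, group alone); filled points have an adjusted p under 0.05. Cluster genes lie mostly to the right in the knockdown, from -1.33 (H2BC9) to 2.10 (H2AC6), and H2AX is filled on opposite sides of 0 in the 2 experiments.

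The difference between both effects was tested directly for the 16 members in both tables, in a fit of all 10 libraries, as RB98# over DMSO minus shRBPMS over shCtrl. With the group alone 1 member passed, where the background was 8.15% of 12126 genes (4.79% higher, 3.36% lower). This was H2AX, at a log2 difference of -1.28 ± 0.16 (adjusted p = 0.00507, edgeR), and it passed without any 1 of the 10 libraries. In the blocked fit 7 of 16 passed, with a background of 37.1% (18.9% higher, 18.2% lower). The difference was below 0 for H2AX, H2AC6 (-1.76), H2BC12 (-1.13) and H2BC21 (-1.72), and above 0 for H2BC9 (1.57), H3-3A (0.47) and H3-3B (1.03).

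Factors that make, carry and exchange histones were read from lists that include these members' partners. Of 29 genes of histone mRNA processing and turnover tested, 0 passed in the knockdown with the group alone (edgeR; 2 at an unadjusted p under 0.05; 1 passed with DESeq2 and 0 with limma-voom) and 6 in the blocked fit, 2 higher and 4 lower, where 28.1% of all genes passed. CTIF and CSTF2T were higher, by 0.39 and 0.40 on the log2 scale, and CDK2 (-0.41), CCNE2 (-0.38) and CASP8AP2 (-0.37) were lower. With RB98#, 2 of 29 were higher and 7 lower, where 20.5% and 17.3% of all genes were. SLBP, the stem-loop binding protein, went from 102 and 116 CPM in DMSO to 82.9 and 80.6 CPM in RB98# (log2 -0.42, adjusted p = 9.33e-05, edgeR). Its CPM in the knockdown was 119, 113 and 106 in shCtrl and 107, 92.5 and 101 in shRBPMS, and it did not pass (adjusted p = 0.111, edgeR, blocked). CCNE1, the cyclin that drives histone transcription with CDK2, fell by 0.69 with RB98#.

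Of 38 histone chaperone and exchange genes, 1 rose in the knockdown with the group alone. This was SET, a chaperone that also blocks histone acetylation, at 340, 373 and 361 CPM in shCtrl and 635, 579 and 576 CPM in shRBPMS (log2 0.74, adjusted p = 0.0349, edgeR). The call of SET was also lost without any 1 of the 5 libraries named for H2AX. In the blocked fit 5 were higher and 15 lower, where 13.3% and 14.8% of all genes were. The largest falls were NPM1 (-0.63), MCM2 (-0.54) and NAP1L4 (-0.45), and CABIN1 (0.43) and INO80 (0.30) joined SET above 0. The list's median was -0.20 with the group alone, against 0.02 over all genes. With RB98#, 5 rose and 8 fell, a share near the 37.8% of all genes. SET fell there, from 712 and 722 CPM to 604 and 557 CPM (log2 -0.31, adjusted p = 0.000109, edgeR), as did DAXX (-0.53), which deposits H3.3, and ANP32E (-0.32), which removes H2A.Z. ATRX, the partner of DAXX, rose by 0.70, and APLF (0.85) and SRCAP (0.40), which exchanges H2A.Z into chromatin, also rose. CENPA and MACROH2A1, histone genes outside the name rule, passed in neither experiment.

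Genes of S phase and proliferation were lower in the knockdown, where the cluster histone sum was higher. Of 22 tested, 0 passed with the group alone (edgeR; 10 at an unadjusted p under 0.05; 4 passed with DESeq2 and 0 with limma-voom) and 18 fell in the blocked fit, where 14.8% of all genes were lower, with a list median of -0.41 (group alone) against 0.02 over all genes. UHRF1 stood at 149, 287 and 283 CPM in shCtrl and at 82.4, 156 and 163 CPM in shRBPMS (log2 -0.84, adjusted p = 0.000442, edgeR, blocked). E2F2 (-0.78) and GINS2 (-0.59) followed. With RB98#, 11 of 22 fell, where 17.3% of all genes were lower, among them RRM2 (-1.05), E2F8 (-0.74) and UHRF1 (-0.70), and E2F1 rose by 0.54. The part of cell cycle composition in the histone values was not tested.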

How the data were processed

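RNA-seq of 10 Kasumi-1 libraries was analysed from 2 deposited gene tables, and 4 further samples were not analysed here. Tools listed for the series, per the submitters' processing notes and with no role given, are HISAT2 (2.2.1), fastp (0.22.0), DESeq2 (1.32.0), featureCounts (2.0.1) and StringTie, on build hg38/GRCh38. Per the file headers, the authors deposited raw counts per gene in both tables. They also deposited adjusted signal values in the knockdown table, whose adjustment is not stated (used as an alternative only), and FPKM in the RB98# table (used for levels per length). Fold changes (log2) and p-values in the deposited tables are the authors' own comparisons and are quoted by name. The RB98# table held 12437 lines, of which 112 repeats were dropped.

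Counts were tested with edgeR 4.0.16 (R 4.3.3): TMM factors, filterByExpr defaults (count 10, total 15), quasi-likelihood F tests, two-sided, with Benjamini-Hochberg adjustment at 0.05 over all genes. The SE is the log2 fold change over the square root of F. DESeq2 1.42.0 and limma 3.58.1 served as alternatives. On simulated counts the edgeR test found 92% (knockdown, 16218 genes) and 93% (RB98#, 12320 genes) of 100 genes changed by 1 on the log2 scale. False calls numbered 11 and 5. The simulation used a fixed dispersion and held no step between label sets, which the knockdown counts have. Its shares therefore do not give the power of the test in these data.

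Same-numbered libraries of the knockdown deviated together (r of 0.852, 0.772 and 0.800 over 10606 genes), so the blocked fit is given beside each result whose call it changes. Replicate 2 against 3 gave 0.776 and 0.767, so these values mark the label sets and not pairs by number. Within a group, the chi-square of counts per degree of freedom was 3.01 and 3.03 for replicate 2 against 3. It was 133 to 215 for replicate 1 against either. The blocked fit counts replicates 2 and 3 as separate units, so its SE can be too small if they are repeats. With RB98# the correlation of same-numbered libraries was -0.0585.

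Members, the 11 lists and the tests were chosen with earlier results of these data known. Named members passed 0.05 in the knockdown (either fit) or with RB98#, or averaged at least 1 CPM in a group; members given beside them as promoter neighbours or antisense partners, or as H3.3-like, were chosen after their values were seen. Each list gives up to 3 genes per direction past 0.05 with the largest change, from the blocked fit where the knockdown fit of group alone called none; list members named from the blocked fit beside a call with the group alone were chosen after their values were seen. Of the B cell markers, 3 of 4 were in the knockdown table, at 3.80 to 4.42 summed CPM in shCtrl and 3.36 to 5.54 in shRBPMS. A planned comparison of histone proteins was not run. The values of 1 variant member are not reported here, though counts and sums include it.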

Additional observations from a re-analysis of the deposited data

Results flagged for a closer look

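H2AX changed in opposite directions in the 2 experiments. The log2 effect of RB98# minus that of the knockdown was -1.28 (adjusted p = 0.00507, edgeR, test of the difference), from 83.1 to 166 CPM in the knockdown and from 128 to 107 CPM with RB98#. It was higher in 3 of 3 shRBPMS libraries and lower in 2 of 2 RB98# libraries than in every control library. The 2 experiments also differ in delivery (lentivirus and puromycin in the knockdown, RB98# beside a DMSO control in the other), which cannot be told apart from the agent.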

How the results depend on the processing

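In the knockdown, 1 member was called with the group alone (320 of all genes). The count was 11 with the replicate block (4549 of all genes), 5 with DESeq2, 13 with the label set as a covariate, 16 in label set 2 alone, 7 after summing replicates 2 and 3 with the set as covariate, 11 on the authors' adjusted values with limma, and 0 to 1 without a replicate. The adjusted values, and the test of the label sets themselves, were chosen after seeing the data. The log2 fold change of H2AZ1 (-0.35) turned to 0.033 without shRBPMS replicate 1, in a range of -0.74 to 0.033 without a replicate. No other member with a call in the group-alone or blocked fit reversed in the settings run. The signs of members without such a call were not followed over the settings. With RB98# the count of 4 became 2 with DESeq2 and 0 to 4 without a replicate. For the difference, the count of 1 became 7 with the replicate block, 2 with library totals and 1 to 4 without a replicate. RBPMS (-1.96) passed with the replicate block (-1.79), DESeq2 (-1.97), the label set covariate (-1.79), set 2 alone (-1.19), the summed replicates (-2.02) and the adjusted values (-1.56), and ranged from -2.23 to -1.30 without a replicate. With RB98# the log2 ratio of the cluster sum ran from -0.12 to 0.12 without a replicate, and that of the variant sum was -0.11 with library totals. The replicate block changed no call of a member other than those given. Of the 11 calls under it, 7 held with replicates 2 and 3 summed, and H3-3A, H2AZ1, H1-10 and H1-10-AS1 were lost. Cluster genes under 1 CPM rest on few counts, which limits what could be called.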

Other observations

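H2BP2, a pseudogene skipped by the name rule, had 15 and 15 counts in DMSO and 62 and 27 in RB98#, and 11, 8 and 11 counts in shCtrl against 24, 25 and 31 in shRBPMS. Its log2 fold change was 1.67 with RB98# (adjusted p = 0.00187, edgeR) and 1.47 in the blocked fit of the knockdown (adjusted p = 0.0170, edgeR; 0.0795 with the group alone). It was chosen after its values were seen.

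H2AC6 was at 5.05 and 3.76 CPM in DMSO and at 0.628 to 1.83 CPM in shCtrl, and H4C12 at 2.25 and 1.63 CPM in DMSO and 0.143 to 0.401 CPM in shCtrl. The 2 tables were scaled separately and the difference was not tested. H4C12 shares 100% of its 50-base words with another gene, so its counts also depend on how shared reads were assigned.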
